A study of Mus musculus with 4 samples.

Results

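The midbrain-hindbrain boundary genes are a set of 9 genes, *En1*, *En2*, *Pax2*, *Pax5*, *Pax8*, *Gbx2*, *Fgf8*, *Wnt1* and *Lmx1b*, taken by name and not by their values, out of 27612 genes listed in the tables of all reads. A cell counted as having a gene when the transcript was captured with at least 1 read. All 9 were listed in the tables of all reads of XN1 and CN4, 8 in that of XN4 and 5 in the table of KN1. The KN1 table is a normalized one and holds no gene captured in fewer than 7 cells. The normalized tables of XN4, XN1 and CN4 listed 3, 4 and 3 of the 9. A gene not listed for KN1 is therefore not shown to be absent from that line.

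The boundary between the midbrain and the hindbrain, also called the isthmus, is a signaling center of the early neural tube. It forms where the midbrain territory of *Otx2* abuts the hindbrain territory of *Gbx2*, and both are homeobox genes that hold each other's domain back. *Fgf8* encodes the growth factor secreted on the hindbrain side, *Wnt1* encodes the signal made on the midbrain side, and *Lmx1b* encodes a LIM homeodomain factor needed to keep both signals on. *Pax2*, *Pax5* and *Pax8* encode closely related paired-box factors, and the engrailed genes *En1* and *En2* encode homeodomain repressors that mark the tissue on both sides. Several of these genes are used again elsewhere, *En1* in the ventral spinal cord and the dermis of the back, *Gbx2* in the spinal cord, and *Lmx1b* in the dorsal limb and in dorsal spinal cord neurons.

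The 4 mouse neural stem cell (NSC) lines were derived from 129/Sv epiblast stem cells (EpiSCs) and grown with EGF and FGF2, each at 10 ng/ml. XN4 and XN1 also received 10 µM XAV939, a tankyrase inhibitor that lowers Wnt signaling, bought from supplier B for XN4 and from supplier A, whose product formed crystals in the medium, for XN1. KN1 received no further compound, and CN4 received 2 µM CHIR99021, a GSK3 inhibitor that raises Wnt signaling. The EpiSCs were freed of activin before derivation, and the dissociated NSCs of all lines were held in the storage reagent CellCover for up to 2 weeks before capture. Each line came from 1 derivation and gave 1 BD Rhapsody library, so a line, its compound and its library cannot be told apart and no difference between lines was tested. XN1 and KN1 were derived in 1 series and XN4 and CN4 in another, by different experimenters, so XN1 and CN4 also differ in series. The intervals given are exact 95% intervals and cover counting error only.

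The tables of all reads held 8741 XN4, 14452 XN1 and 18157 CN4 cells with a median of 12615, 5982 and 9173 reads, and the KN1 table held 3975 cells with a median of 5862 reads. The mean number of reads for a gene captured in a cell was 5.55 in XN4, 2.65 in XN1 and 3.19 in CN4, and 7.39 in KN1, where a median cell had 833 genes. Between 37 and 320 cell indices were shared by any 2 libraries. Markers of both kinds of cell were captured in XN4. Of 10 neural stem cell markers *Sox1*, *Sox2*, *Sox3* and *Pax6* were captured in at most 0.561% and *Fabp7* in 0 of its cells, while *Vim* and *Zeb2*, which connective tissue cells also express, were captured in 84.8% and 57.9%, *Sox9* in 46.2%, *Msi1* in 17.9% and *Nes* in 8.56%. The list summed to 1336 RPM (reads scaled to a library total of 1000000) in XN4, 3437 in XN1 and 6706 in CN4. KN1 was at 2265 in its normalized table. That table lacks ribosomal protein and mitochondrial genes, so its sums are on another scale. Of 14 connective tissue markers *Col3a1*, *Dcn* and *Prrx1* were captured in 97.7%, 87.5% and 86.7% of XN4 cells, *Col1a2* in 6.72%, *Acta2* in 1.41%, *Thy1* in 0.275% and *Tagln* in 0.240%. The list summed to 6030 RPM in XN4, 173.6 in XN1 and 153.7 in CN4, and to 24.9 in the normalized table of KN1. The part of this difference in makeup in the results for XN4 was not tested, and XN4 is called by its name below.

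In the GRCm38 build, *En1* lies on chromosome 1 at 120602418 to 120607992 on the plus strand and *Gbx2* on the same chromosome at 89927956 to 89931179 on the minus strand. *En2* lies on chromosome 5 at 28165694 to 28172166 (plus) and *Lmx1b* on chromosome 2 at 33560965 to 33640511 (minus). The sequences upstream of the starts are shown for *En1* and *Gbx2*, the boundary genes with most reads in CN4, and for *Lmx1b*, whose reads went the other way. RefSeq (GRCm38.p6) held promoters for 7 of the 9 genes, and of the 250 bases before each start those inside the gene in GENCODE were left out. They are *En1* chr1:120602237-120602417 (plus), *Gbx2* chr1:89931180-89931426 (minus) and *Lmx1b* chr2:33641099-33641348 (minus), and the capitals mark the CCAAT box (CCAAT or ATTGG) and the GC box (GGGCGG or CCGCCC). The *Lmx1b* stretch precedes a RefSeq start that lies upstream of the GENCODE start at 33640511, so it does not abut the gene as placed above.
En1: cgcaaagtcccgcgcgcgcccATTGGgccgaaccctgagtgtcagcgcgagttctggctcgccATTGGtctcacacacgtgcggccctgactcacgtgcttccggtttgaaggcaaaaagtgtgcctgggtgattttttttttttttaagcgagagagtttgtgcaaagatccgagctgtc
Gbx2: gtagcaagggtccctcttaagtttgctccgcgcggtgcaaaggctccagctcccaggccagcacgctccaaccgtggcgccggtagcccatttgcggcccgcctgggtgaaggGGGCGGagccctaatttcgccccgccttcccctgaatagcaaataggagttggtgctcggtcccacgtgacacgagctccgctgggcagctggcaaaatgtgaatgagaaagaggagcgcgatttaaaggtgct
Lmx1b: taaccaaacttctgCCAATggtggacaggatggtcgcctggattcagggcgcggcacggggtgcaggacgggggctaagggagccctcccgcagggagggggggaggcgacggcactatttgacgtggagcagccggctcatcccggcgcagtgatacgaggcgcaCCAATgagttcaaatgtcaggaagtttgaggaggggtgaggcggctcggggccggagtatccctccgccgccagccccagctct
The CCAAT box stood at 2 places in *En1* and 2 in *Lmx1b* and the GC box at 1 place in *Gbx2*; 33.8% and 32.7% of 32851 promoters held them on either strand. The letters CTTTGA of TCF and LEF factors, TAATCC of Otx factors, TAATTA of homeodomain factors and TATAAA were on neither strand of the 250 bases of any of the 7 genes, against 13.8%, 6.25%, 4.84% and 12.4% of all promoters. These are matches of letters and not measured sites.

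*En1* was captured in large parts of XN1 and CN4. The cell fraction was 29.2% in CN4 (28.5 to 29.8%) and 24.3% in XN1 (23.6 to 25.0%), against 1.86% in KN1 (1.47 to 2.33%) and 0.881% in XN4 (0.696 to 1.10%). When each cell was thinned to 3600 reads, the cell fractions of XN1 and CN4 were 16.4% (15.8 to 17.1%) and 16.2% (15.7 to 16.8%) with overlapping intervals, and that of XN4 was 0.338%. The level, in RPM, was 57.6 in XN1, 67.3 in CN4 and 1.38 in XN4. XN1, grown with XAV939, and CN4, grown with CHIR99021, thus had overlapping cell fractions of *En1* at 3600 reads a cell. A gene captured in a cell had fewer reads in XN1 than in CN4, and the thinned cells had a median of 1751 and 1792 genes, so only the number of reads was made equal. Thinned XN4 cells had a median of 1438 genes.

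*En2* separated these lines. Its cell fraction was 18.5% in XN1 (17.9 to 19.2%), 1.80% in CN4 (1.61 to 2.01%) and 0.721% in XN4 (0.554 to 0.921%), and it was not listed in the KN1 table. The level was 38.6 RPM in XN1 and 2.46 in CN4, 15.7-fold apart, and the thinned cell fractions were 12.0% and 0.801%. XN1 gave 5365 reads of *En1* and 3592 of *En2*, and CN4 gave 12167 and 445. The reads were not corrected for gene length, so the comparison is between lines and not between genes.

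*Gbx2*, the hindbrain-side factor, had the opposite order. The cell fraction was 20.4% in CN4 (19.8 to 21.0%), 2.05% in XN1 (1.82 to 2.29%) and 0.805% in KN1 (0.551 to 1.14%). In the normalized tables the level of XN1, 5.29 RPM, lay below the 5.88 of KN1 while its thinned cell fraction, 1.37%, lay above the 0.736% of KN1, so no order of these lines was read. *Gbx2* was not among the genes of the XN4 table used here. The level was 38.8 RPM in CN4 and 4.06 in XN1, 9.55-fold apart, and the thinned cell fractions were 10.4% and 1.20%. *Otx2*, its midbrain-side counterpart, was captured in 10.1% of XN1 cells and 0.0496% of CN4 cells. Of these 2 lines XN1 thus had the higher *Otx2* and CN4 the higher *Gbx2*. *Gbx2* is also used in the spinal cord, so the pair does not place either line beside the boundary, and position was not tested.

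*Lmx1b* was low everywhere and lowest in CN4. The cell fraction was 0.336% in CN4 (0.257 to 0.431%), 2.06% in KN1 (1.64 to 2.55%), 3.58% in XN1 (3.29 to 3.90%) and 4.05% in XN4 (3.65 to 4.48%). XN1 was 15.7-fold above CN4 in RPM, 6.78 against 0.431. XN4, at 4.81, lay below XN1 in level and, at 1.33% against 2.03%, in thinned cell fraction, although its unthinned fraction was the higher. At 3600 reads a median XN4 cell had 1438 genes against 1751 in XN1, so these thinned fractions are not on equal terms. In the normalized tables KN1 lay above XN4, at 17.2 against 5.87 RPM and 1.62% against 1.18% of thinned cells. The unthinned fraction of KN1 was the lower.

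The paired-box genes and the 2 signals were at the bottom of the tables. *Pax2* was captured in 15 XN4, 11 XN1, 13 KN1 and 24 CN4 cells, and *Pax5* in 22, 17, 17 and 20. *Pax8* was captured in 17 XN4, 8 XN1 and 35 CN4 cells. *Fgf8* was captured in 23 XN4 cells, 1 XN1 cell and 22 CN4 cells, and *Wnt1* in 2, 4 and 13. None of these 5 genes reached 0.5% of the cells of any line, the minimum for a comparison, and none of the *Pax8*, *Fgf8* and *Wnt1* columns was listed for KN1. *Fgf8* differed from the rest in XN4, where its cells had a median of 2 reads and 34.8% had a single read, against 86.7 to 100% of the cells with a *Pax2*, *Pax5*, *Pax8* or *Wnt1* read there.

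**Figure D1:**
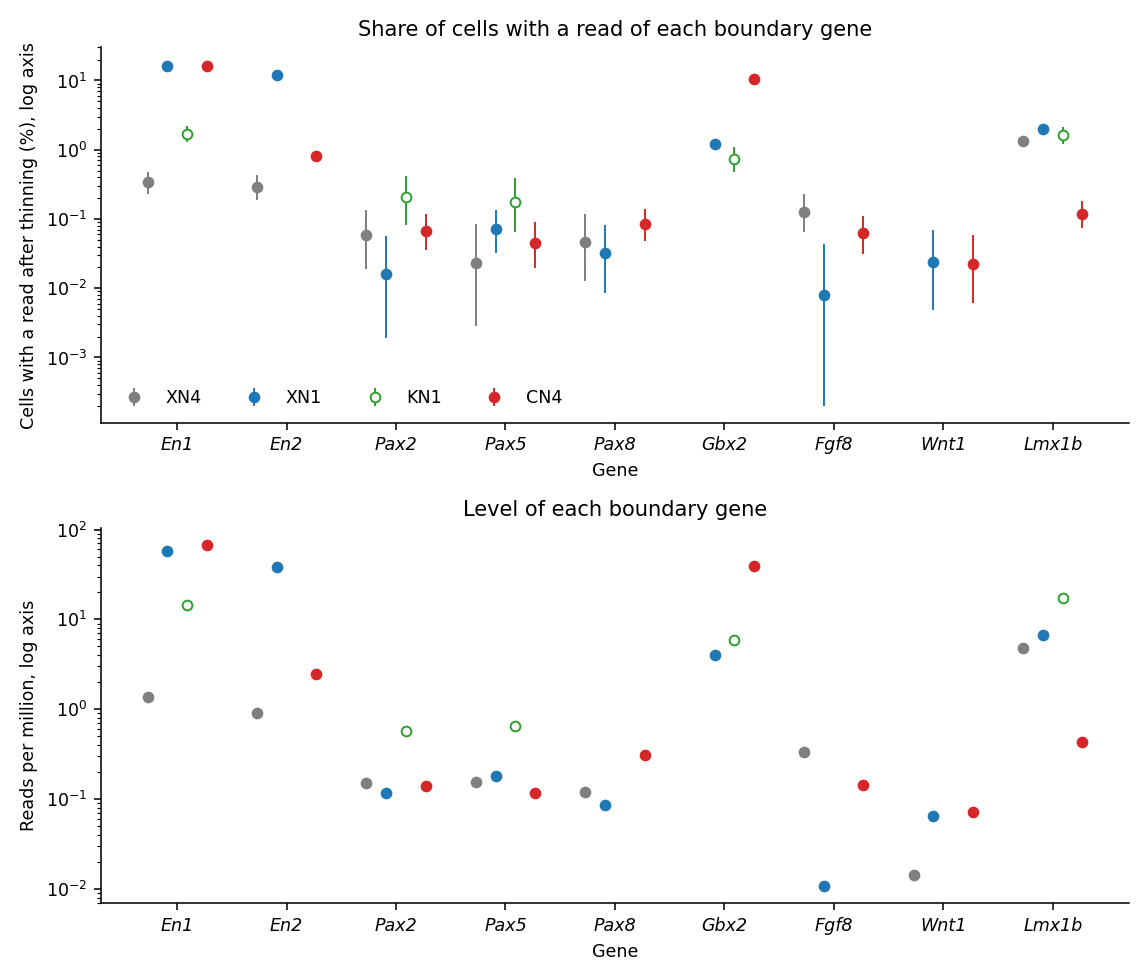
The upper panel plots the percent of cells with a read of each gene after thinning (3600 reads a cell; 3200 for KN1, open circles, from its normalized table) with exact 95% intervals, and the lower panel plots RPM, both on log axes; a gene with no cell in a line has no point. *En1* was at 16.4% in XN1 and 16.2% in CN4, *En2* at 12.0% in XN1 and *Gbx2* at 10.4% in CN4, while *Pax2*, *Pax5*, *Pax8*, *Fgf8* and *Wnt1* lay below 0.5% in every line.

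A gene was called between 2 lines when its RPM differed at least 2-fold and it had a read in at least 0.5% of the cells of either line. Only genes listed for both lines were compared, so *Gbx2*, not listed for XN4, was left out of the comparisons with XN4. Between XN1 and CN4, 4 boundary genes could be compared and 3 were called, *En2* and *Lmx1b* higher in XN1 and *Gbx2* higher in CN4, where 20.6% of 13830 genes were called, 10.4% higher in XN1 and 10.2% lower. Between XN1 and XN4, *En1* and *En2* of 3 genes were called, 41.7-fold and 42.6-fold higher in XN1 (35.3% of genes called), and *Lmx1b* was 1.41-fold higher. Between CN4 and XN4 all 3 genes compared were called (37.8% of genes called), with *En1* 48.7-fold and *En2* 2.72-fold higher in CN4 and *Lmx1b* 11.2-fold higher in XN4. With so few members in each comparison, the counts say little beyond the genes named.

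The normalized tables allowed comparison with KN1 for the genes listed in both, and 2 of 3, 2 of 2 and 2 of 2 boundary genes were called against XN1, CN4 and XN4 (47.3%, 43.3% and 45.4% of genes called). *En1* was 5.22-fold higher in XN1 and 5.71-fold higher in CN4 than in KN1, and 5.90-fold higher in KN1 than in XN4. By thinned cell fraction the same comparisons of *En1* gave 11.4-fold, 10.2-fold and 3.55-fold. *Gbx2* was 8.65-fold higher in CN4 than in KN1 in level and 15.7-fold higher in thinned cell fraction, so the size of these differences depended on the measure. At 3200 reads a median KN1 cell had 766 genes, against 1808 in XN1, 1847 in CN4 and 1647.5 in XN4. Thinning therefore left fewer genes captured in a KN1 cell, and the thinned fractions of KN1 are not on equal terms with the others. The level and the cell fraction gave different orders for XN1 and KN1 for *Lmx1b* as for *Gbx2*. *Lmx1b* was at 7.68 RPM in XN1 and 17.2 in KN1 but in 2.49% and 1.62% of thinned cells, so no order of these lines was read. Against XN4 *Lmx1b* was called, 2.92-fold higher in KN1 in level and 1.37-fold higher in thinned cell fraction. Cells of KN1 with *En1* had a median of 4 reads, against 1 in XN1 and 2 in CN4.

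The cell fractions rose with the depth of the cells in each line where the gene was captured often. In XN1 *En1* was captured in 11.1% of the 10% of cells with fewest reads and 40.8% of the 10% with most, and *En2* in 8.78% and 30.9%. In CN4 *En1* rose from 10.9 to 50.2% and *Gbx2* from 7.05 to 35.8%. The deepest 10% of XN4 cells, with a median of 39150 reads, still had *En1* in 1.60% and *En2* in 2.06% of cells. A cell without a read of these genes may therefore be a cell in which the transcript was missed, and the share of cells expressing a gene was not measured.

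**Figure D2:**
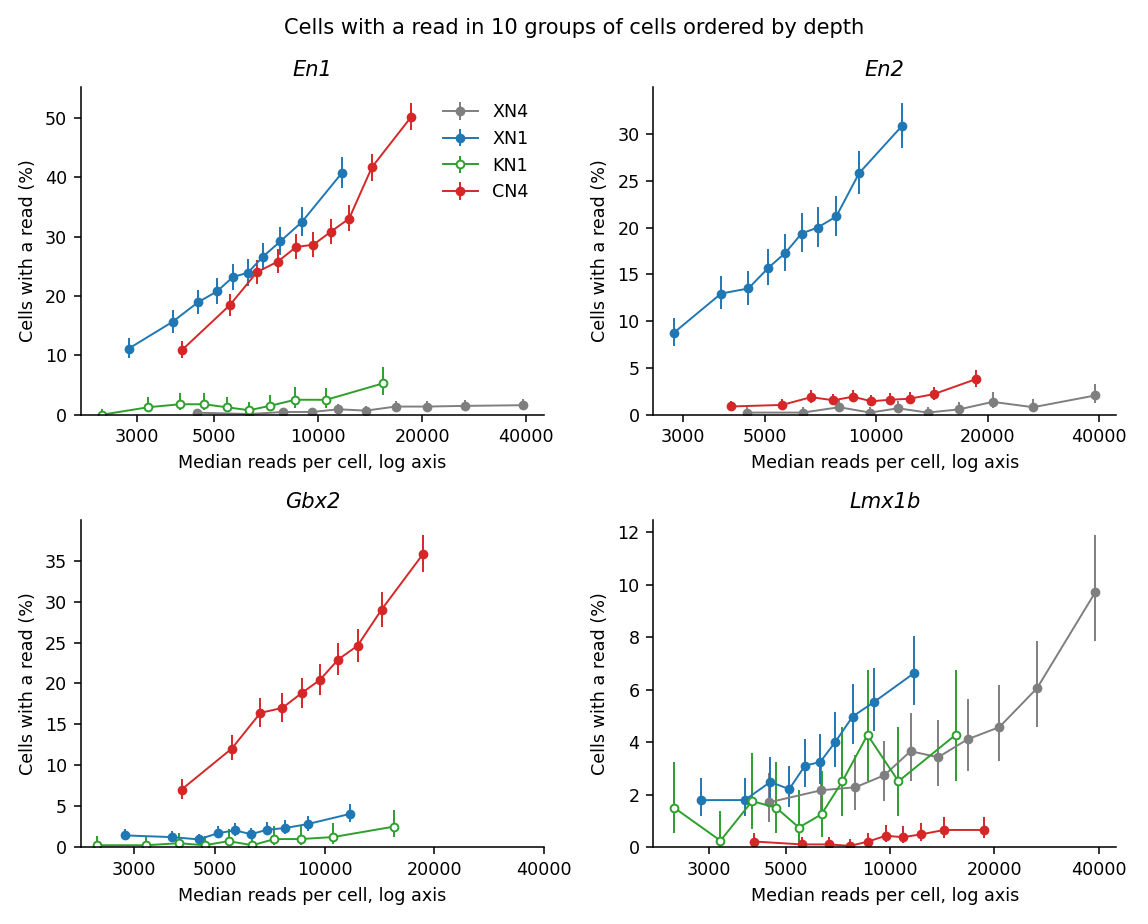
Percent of cells with a read (exact 95% intervals) in 10 groups of cells ordered by total reads, against the median reads of each group on a log axis, for 4 boundary genes and the lines in which each was listed. *En1* reached 40.8% in the deepest XN1 cells and 50.2% in the deepest CN4 cells, and the XN4 points stayed at or below 2.06% for *En1* and *En2*.

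Most cells with a boundary gene had a single one. At least 1 of the 9 was captured in 41.0% of XN1 cells, 43.2% of CN4 cells, 6.35% of XN4 cells and 5.28% of KN1 cells. Of XN1 cells, 33.6% had 1 gene, 6.91% had 2 and 0.422% had 3, and of CN4 cells 34.3% had 1, 8.65% had 2 and 0.237% had 3. *En1* and *En2* were captured together in 769 XN1 cells, which were 21.9% of the cells with *En1* and 28.7% of those with *En2*. *En1* and *Gbx2* were captured together in 1434 CN4 cells, 27.1% of the cells with *En1* and 38.7% of those with *Gbx2*.

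To ask whether 2 genes fell in the same cells more often than depth alone gives, the cells of a line were divided into 20 strata of total reads and the number of cells with both was compared with that expected within strata. The intervals of these ratios, here and below, are Poisson intervals on the number of cells with both genes. They leave out that the totals of the 2 genes are fixed, so they are too wide where both genes are common. For such pairs an interval that includes 1 does not show that an excess or shortfall is absent. In XN1 *En1* and *En2* met in 769 cells against 723 expected (ratio 1.06, interval 0.989 to 1.14). Both genes are common there, so whether this small excess exceeds counting error was not settled. Where 2 reads of each gene were asked for, the ratio of this pair was 1.39 and its interval, 1.13 to 1.70, lay above 1. *Gbx2* in XN1 met *En1* in 86 cells against 81.2 expected and *En2* in 61 against 62.2, both with intervals that include 1. At 2 reads these ratios were 0.439 and 1.59, again with 1 inside the intervals. *Lmx1b* and *Gbx2* met in 7 XN1 cells against 12.6 expected (ratio 0.554, 0.223 to 1.14). *Otx2* met *Gbx2* in 35 XN1 cells against 34.9 expected (1.00, 0.698 to 1.39) and *En1* in 419 against 401 (1.04, 0.947 to 1.15), both with intervals that include 1. Of 4 midbrain side factors compared in XN1, 0 had an interval off 1 for *Gbx2*, 1 lay below for *En1* (*Pou4f1*, 9 cells against 19.1 expected) and 1 above for *En2* (*Otx1*, 1.11, 1.02 to 1.22).

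In CN4 *En1* and *Gbx2* met more often than expected. They met in 1434 cells against 1236 expected (ratio 1.16, 1.10 to 1.22). *En2*, captured in 327 CN4 cells, met *Gbx2* in 59 cells against 76.9 expected (0.767, 0.584 to 0.989) and *En1* in 94 against 109 (0.861, 0.695 to 1.05). The first interval reached 1.01 with 5 strata in place of 20, so that shortfall did not hold under every choice. Of the 327 CN4 cells with *En2*, 10 had *Cnpy1*, an FGF signaling modulator of the isthmus, against 1.72 expected (5.83, 2.79 to 10.7). Of 11 FGF feedback and target genes, *Cnpy1* was the 1 above 1 for *En2* in CN4 and 0 lay below, where 1.78% of all genes lay above. In XN1, where *Cnpy1* was captured in 6.21% of cells, it met *En2* in 195 cells against 188 expected (1.04, 0.897 to 1.19).

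**Figure D3:**
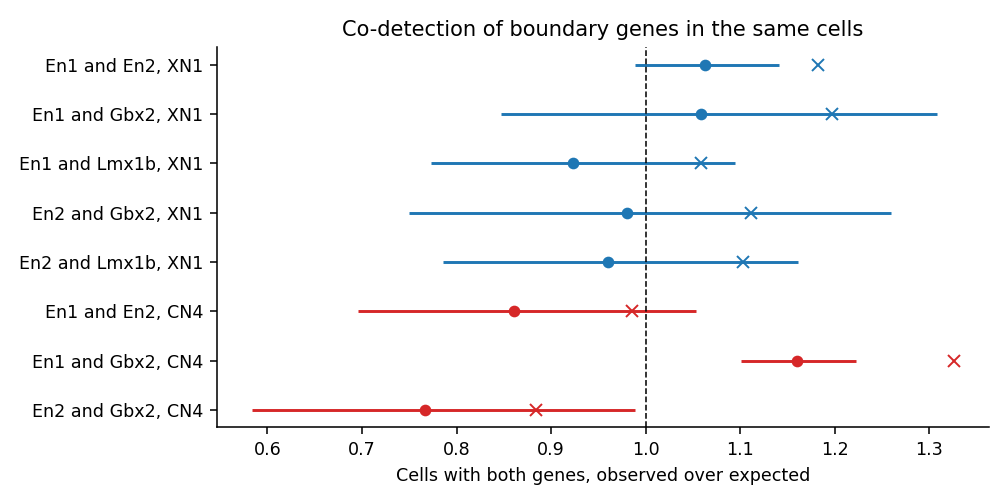
Cells with both genes of a pair, observed over expected within 20 strata of total reads (circles, exact Poisson 95% intervals) and without strata (crosses), for pairs with at least 50 cells observed and expected in XN1 (blue) or CN4 (red). The interval lay above 1 for *En1* and *Gbx2* in CN4 (1.16) and below 1 for *En2* and *Gbx2* in CN4 (0.767), and it included 1 for the 5 XN1 pairs and for *En1* and *En2* in CN4. Poisson intervals are too wide where both genes are common, such as *En1* and *En2* in XN1.

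The ratios of these genes with all other genes gave the background. For *En1* in XN1, 1.35% of 13481 genes had an interval above 1 and 1.14% below, for *En2* 1.28% and 0.631%, and for *Gbx2* 1.92% and 0.994%. For *En1* in CN4 the shares were 6.42% above and 4.24% below of 14607 genes, for *Gbx2* 6.4% and 3.58%, and for *En2* 1.78% and 0.89%. CN4 had more cells, which narrows its intervals, so the shares of the lines were not compared. Among genes captured in at least 10% of CN4 cells, whose intervals are narrower, 6.8% lay above 1 and 5.17% below for *En1*, and 7.72% and 4.1% for *Gbx2*.

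The FGF feedback and target genes are turned on by the FGF pathway and many of them restrain it. Of 11 such genes in CN4, 7 lay above 1 and 0 below for *En1*, with a median ratio of 1.05 against 1.00 over all genes, and 7 above and 0 below for *Gbx2*, with a median of 1.06. *Dusp6*, a phosphatase of ERK, met *En1* in 3664 cells against 3192 expected (1.15, 1.11 to 1.19) and *Gbx2* in 2707 against 2247 (1.21, 1.16 to 1.25). *Spry4* met *En1* at a ratio of 1.15 and *Gbx2* at 1.17, and *Il17rd* at 1.10 and 1.14. The 6 FGF ligand and receptor genes compared did not share this pattern for *En1*, with 1 above 1 (*Fgfr1*, 1.08) and 4 below (*Fgf18*, *Fgfr3*, *Fgfr4* and *Flrt3*; list median 0.852), and for *Gbx2* 3 lay above (*Fgfr1*, *Fgfr2* and *Fgfr3*) and 1 below (*Flrt3*; list median 1.05). In XN1 1 of the 11 lay above 1 for *En1* (*Spry4*, 1.04), 1 for *En2* (*Spred2*, 1.09) and 1 for *Gbx2* (*Spry1*, 1.16).

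A related count was made from thinned cells, a division chosen after the ratios were seen. In CN4 *En1* was captured in 10.1% (9.24 to 11.1%) of 4232 cells with 0 to 2 of the 11 genes, 15.4% of those with 3 to 4, 19.7% of those with 5 to 6 and 22.8% (20.9 to 24.8%) of 1903 cells with 7 or more. *Gbx2* went from 5.46 to 9.19, 13.2 and 17.5% over the same cells, while *En2* was at 0.945% in the first group and 0.631% in the last with overlapping intervals. In XN1 *En1* went from 13.7% (11.2 to 16.6%) to 18.4% (16.9 to 20.0%) and *En2* from 9.96% (7.78 to 12.5%) to 13.4% (12.0 to 14.8%). The median number of genes in these groups was 1765 to 1813 in CN4 and 1749 to 1753 in XN1.

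**Figure D4:**
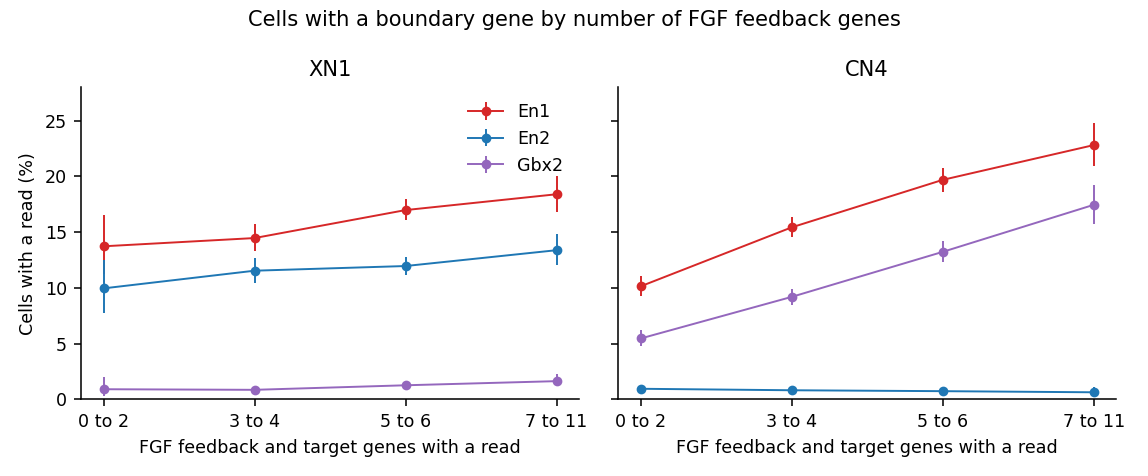
Percent of cells with *En1*, *En2* or *Gbx2* (exact 95% intervals) by the number of FGF feedback and target genes with a read in the cell, after thinning to 3600 reads, in XN1 and CN4. In CN4 *En1* went from 10.1 to 22.8% and *Gbx2* from 5.46 to 17.5%, and in XN1 *En1* went from 13.7 to 18.4%.

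Several other listed genes lay on the same side of 1 for *En1* and *Gbx2* in CN4, and a few did not. *Sox10*, from the list of neural crest markers, met *En1* in 45 cells against 92.9 expected (0.484, 0.353 to 0.648). It met *Gbx2* in 36 against 64.0 (0.562, 0.394 to 0.779), and *Ets1* also lay below 1 for both. Of 5 genes of that list 3 lay below 1 and 0 above for each gene. The name of the list is not a call of cell type, and the identity of cells with *Sox10* was not tested. *Lgr5*, a Wnt target gene, lay below 1 for *En1* (0.866) and *Gbx2* (0.785), while *Axin2*, the feedback gene of the pathway, was at 1.04 and 1.03 with intervals that include 1. Of 10 Wnt ligand and target genes 1 lay above 1 and 2 below for *En1*, and 0 above and 2 below for *Gbx2*. *Foxa2*, a ventral midline factor, lay above 1 for *En1* (1.40, 1.28 to 1.53) and *Gbx2* (1.34, 1.20 to 1.49), while the other 2 midbrain side factors compared, *Meis2* (0.907 and 0.936) and *Pax3* (0.898 and 0.923), lay below 1 for both. The FGF receptor gene *Fgfr3* was at 0.810 (0.736 to 0.889) for *En1* and 1.14 (1.03 to 1.25) for *Gbx2*, and *Hoxa9* was at 1.28 (1.19 to 1.38) and 1.04 (0.941 to 1.14). Of the 10 dividing cell markers, 9 lay below 1 for *En1* and 6 for *Gbx2*, with medians of 0.945 and 0.955.

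**Figure D5:**
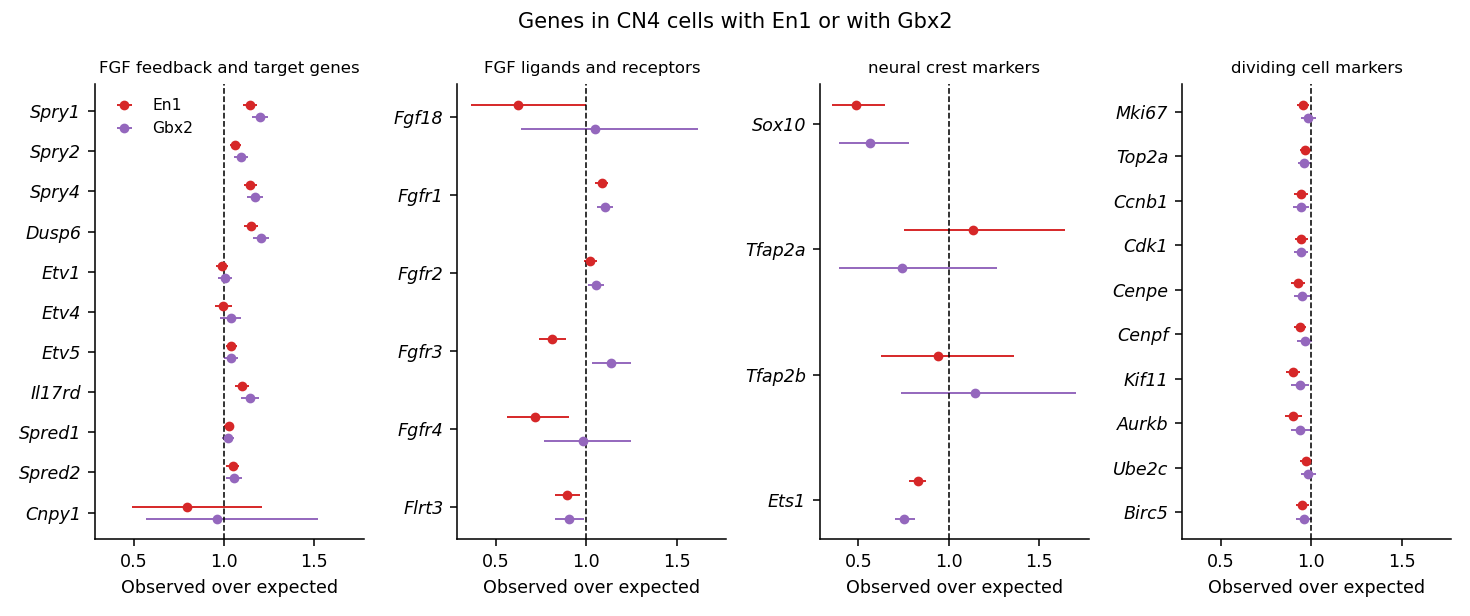
Observed over expected cells (exact Poisson 95% intervals) for genes from 4 lists in the CN4 cells with *En1* (red) or *Gbx2* (purple), within 20 strata of total reads. *Spry1*, *Spry2*, *Spry4*, *Dusp6* and *Il17rd* lay above 1 for both genes, *Sox10* and *Ets1* below 1 for both, and *Fgfr3* on opposite sides.

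Ranked by the lower bound of the ratio among genes in at least 1% of CN4 cells, the 5 genes that met *En1* most were *Shh* (273 cells against 151 expected, ratio 1.81), *Sostdc1* (1.65), *Hoxc9* (1.44), *Chst1* (1.59) and *Foxa2*. *Shh* encodes the ventral signal of the neural tube and *Hoxc9* is a trunk Hox gene. The 5 for *Gbx2* were *Fam167a* (1.43), *Adrb1* (1.42), *Fhdc1* (1.61), *Naaa* (1.39) and *C1qtnf3* (1.48). In XN1 the first for *En1* were *Gm42372* (1.54) and *Insm1* (1.29), and for *En2* *Nell2* (1.56) and *Bbs9* (1.31). These genes were named after their values were seen.

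The few XN4 cells with an engrailed gene had markers of both lists. Of 77 cells with *En1*, 77 had *Col3a1*, 71 *Prrx1*, 66 *Dcn*, 14 *Col1a2* and 3 *Acta2*, and *Tagln* and *Thy1* were in 0. As shares these were 92.2% for *Prrx1*, 85.7% for *Dcn* and 18.2% for *Col1a2*, against 86.7%, 87.5% and 6.72% of all XN4 cells. Of the neural list, 70 of the 77 had *Vim*, 44 *Zeb2*, 35 *Sox9*, 14 *Msi1*, 10 *Nes* (13.0% against 8.56% of all XN4 cells) and 2 *Pax6* (2.60% against 0.412%), and *Sox1*, *Sox2*, *Sox3* and *Fabp7* were in 0. Of 63 cells with *En2*, 62 had *Col3a1*, 57 *Prrx1*, 55 *Dcn*, 61 *Vim*, 37 *Sox9*, 33 *Zeb2*, 19 *Msi1*, 10 *Nes* and 1 *Pax6*, 21 had *Pdgfra* (33.3% against 54.7% of all XN4 cells), 2 *Col1a2* and 2 *Acta2*, and *Sox1*, *Sox3*, *Fabp7* and *Tagln* were in 0. *Sox2* was in 7 of them (11.1% against 0.561% of all XN4 cells) and *Thy1* in 3 (4.76% against 0.275%). Among single genes named after their values were seen, *Bmp6* met *En1* in fewer cells than expected (3 against 9.24) and others in more. *En1* met *Msx1* in 9 cells against 0.732 expected, *Zic1* in 13 against 0.737, *Meis2* in 44 cells against 7.68 (5.73, 4.16 to 7.69) and *Shox2* in 41 against 6.67 (6.15, 4.41 to 8.34). *En2* met *Otx1* in 9 cells against 0.650 expected (13.9, 6.33 to 26.3), *Emx2* in 12 against 2.18 and *Meis2* in 33 against 6.27. *Col1a1*, a fibrillar collagen gene, lay above 1 for *En1* (1.63, 1.14 to 2.26) and below 1 for *En2* (0.395, 0.159 to 0.815). Of 12 connective tissue markers 3 lay above 1 and 1 below for *En1*, and 0 above and 2 below for *En2*. Of 5 neural stem cell markers compared, 0 lay above and 0 below for *En1* (median ratio 0.8605) and for *En2* (1.05). *Sox2*, *Pax6* and *Thy1*, in 49, 36 and 24 XN4 cells, were under the 50 cells asked for in these ratios. The shares of cells, unlike the ratios, were not matched for depth. The 2 engrailed genes met in 3 cells against 0.767 expected (0.807 to 11.4). Of 13895 genes, 3.44% lay above 1 and 1.46% below for *En1*, and 2.45% and 0.979% for *En2*. Of the 354 cells with *Lmx1b*, 347 had *Col3a1*, 327 *Prrx1*, 5 *Acta2*, 3 *Tagln* and 2 *Thy1*, and 320 had *Vim*, 235 *Zeb2*, 209 *Sox9*, 91 *Msi1* and 2 *Sox2*. The shares of *Col3a1* (98.0%) and *Sox2* (0.565%) were close to the 97.7% and 0.561% of all XN4 cells. Those of *Nes* (16.7% against 8.56%), *Sox9* (59.0% against 46.2%) and *Pdgfra* (66.1% against 54.7%) were higher. Within depth strata, 0 of 5 neural stem cell markers and 0 of 12 connective tissue markers lay above or below 1 for *Lmx1b*.

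Dividing cells, those with reads of at least 3 of 10 dividing cell markers after thinning, differed little from other cells in XN1 and had a lower cell fraction of *En1* in CN4. In XN1 *En1* was in 16.6% of dividing cells (15.3 to 18.0%) and 16.3% of other cells (15.6 to 17.1%), and *En2* in 12.3% and 11.9% with overlapping intervals. In CN4 *En1* was in 15.3% (14.6 to 16.1%) of 9115 dividing cells and 17.2% (16.4 to 18.0%) of 8499 other cells, and *Gbx2* in 9.80% (9.19 to 10.4%) and 11.0% (10.3 to 11.7%), whose intervals touched. Without thinning the cell fractions in CN4 were 3.78 percentage points higher in dividing cells for *En1* and 3.69 higher for *Gbx2*, and in XN1 5.66 higher for *En1* and 4.19 higher for *En2*. *Lmx1b* was in 1.24% of dividing and 1.35% of other XN4 cells, 1.87% and 2.07% in XN1, and 2.31% (1.49 to 3.42%) and 1.31% (0.895 to 1.86%) in KN1, with overlapping intervals. Dividing KN1 cells had a median of 913 genes after thinning and the others 718.

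The surroundings of the pathway were compared through lists of its other genes. Among the FGF feedback and target genes, 4 of 11 were higher and 1 lower in XN1 than in CN4 (10.4% and 10.2% of all genes tested), with a median log2 difference of 0.44 against -0.08 over all genes. *Spry4* was at 700.4 RPM in XN1 and 325 in CN4, *Etv5* at 859.5 and 234, *Dusp6* at 746 and 267, and *Cnpy1* at 12.1 and 0.597, whereas *Il17rd* was at 8.24 and 103. The ligand genes *Fgf17* and *Fgf18* of the isthmus were captured in at most 0.479% of cells of XN4, XN1 and CN4, and *Fgf17* in 0.554% of KN1 cells. Of 9 Wnt ligand and target genes compared, 3 were higher and 6 lower in XN1 than in CN4 (10.4% and 10.2% of all genes; median log2 -1.87), with *Axin2* at 15.9 and 72.7 RPM and *Lef1* at 10.9 and 1.37.

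Of 5 midbrain side factors compared, 2 were higher and 3 lower in XN1 than in CN4 (10.4% and 10.2% of all genes). *Otx1* and *Otx2* were at 31.7 and 21.0 RPM in XN1 and at 0.0442 and 0.0498 in CN4. Among those lower, *Pax3* and *Foxa2* were at 0.236 and 0.193 in XN1 and 27.0 and 10.9 in CN4. On the hindbrain side, 4 of 9 genes were lower in XN1 than in CN4 and 0 were higher (10.2% and 10.4% of all genes), among them *Hoxb2* at 0.0645 and 52.95 and *Hoxb3* at 0.0537 and 87.4. *Hoxa3* was captured in both, in 12.0% of XN1 and 10.6% of CN4 cells. *Sp8*, a factor of the isthmus and forebrain that acts with *Fgf8*, was captured in 14.1% of KN1 cells and in at most 0.0572% of the cells of the other lines.

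By distance between log2 RPM over XN4, XN1 and CN4, with 1 added, the genes most like *En1* among 13810 included *Mef2c* (distance 0.10), *Spsb4* (0.12), *Reep1* (0.45) and *Fmn2* (0.48). Those most like *En2* were *Car12* (0.15), *Adamts19*, *Cadps2*, *Ccdc85a* and *Prss35* (0.58). Those most like *Gbx2*, taken as 0 in XN4, were *Slitrk2* (0.34), *Lgr5*, *Bex4*, *Dbx2* and *Fzd10* (0.64), and *Lgr5* lay below 1 with *Gbx2* within CN4 cells (0.785). Those most like *Lmx1b* were *Matn4* (0.25), *C1rl*, *Rasgrp2*, *Lif* and *Pitpnm1* (0.43). Each likeness rests on 3 lines.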

How the data were processed

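Single-cell transcriptomes of 4 NSC lines were measured with 1 library each, assigned to lines by the sample titles. The authors aligned reads to GRCm38 with the BD Rhapsody WTA pipeline (1.12.1, GENCODE M19, intronic reads kept per the file headers) and deposited the counts of reads per gene and cell for XN4, XN1 and CN4. They also deposited, for each line, natural log values of 3448 to 3975 cells normalized with Seurat 4.3.0 after ribosomal protein and mitochondrial genes were removed. These were divided back into whole reads (0 values off a whole number by more than 0.01) and equaled the counts where both tables held the cell.

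Reads, not molecules, were counted, and overlapping genes were not separated by strand here. No doublet caller was run and no cell was removed. Python 3.11 (numpy, scipy) gave exact Clopper-Pearson and Poisson 95% intervals, and the code was tested on simulated data. Thinning left out 154 XN4, 1858 XN1 and 543 CN4 cells under 3600 reads and 579 KN1 cells under 3200. The 9 genes are named throughout; other genes were named from lists, by distance (the 5 nearest) or after their values were seen. The members, lists and rules were chosen with earlier results of these data known. A few genes that these rules name are not reported here. Positions came from GENCODE M21, on the same build.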

Additional observations from a re-analysis of the deposited data

How the results depend on the processing

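No paired analysis was possible because each line had 1 library and no comparison between lines was tested. Left-out replicates do not exist for the same reason, and depth limits every cell fraction. In the order *Lmx1b* in XN4 and XN1, *En1* in XN1 and CN4, *En2* in XN1 and *Gbx2* in CN4, the percent of cells was 1.68, 0.630, 8.37, 15.5, 4.69 and 8.86 when 2 reads were asked for, and 1.33, 2.03, 16.4, 16.2, 12.0 and 10.4 after thinning. In the cells of the normalized table it was 3.54, 3.10, 25.3 (*En1* in CN4), 17.6 and 18.6 for the 5 that left their interval, and without the 5% of cells with most reads 23.3 (*En1* in XN1), 27.9 (*En1* in CN4), 17.8 and 19.4. In cells with 2000 to 3000 genes, a choice made after seeing the data, it was 3.09 for *Lmx1b* in XN4, 23.6 for *En1* in CN4 and 15.7 for *Gbx2* in CN4.

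At 4-fold the genes called were 1060 (XN1 against CN4), 2639 (XN1 against XN4), 2891 (CN4 against XN4), and 2141, 1809 and 2478 (XN1, CN4 and XN4 against KN1), from 2843, 5229, 5685, 5935, 5582 and 5951 at 2-fold. With no filter on low values the first 3 were 6760, 9642 and 10634, and the boundary genes called were 5, 4 and 6. By thinned cell fraction XN1, CN4 and XN4 against KN1 gave 8036, 8379 and 8121. Against KN1, 1 boundary gene was called in XN1 and 1 in XN4, at 4-fold and by thinned cell fraction.

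The ratio of *En1* and *En2* in XN1 was 1.18 without strata and 1.39 at 2 reads, and that of *En1* and *Gbx2* in CN4 was 1.33 and 1.32, and 1.26 in the cells of the normalized table. At 2 reads the XN1 ratios of *En1* and *Gbx2*, *En1* and *Lmx1b*, *En2* and *Gbx2*, and *En2* and *Lmx1b* were 0.439, 1.15, 1.59 and 0.559. In the cells of the normalized table *En2* and *Gbx2* in XN1 were at 1.38 and *En1* and *En2* in CN4 at 0.568. The ratios kept to their intervals with 5 or 50 strata and with strata of genes detected, the last added after seeing the data. Without thinning, *En1* in CN4 was 3.78 percentage points higher in dividing cells, from 1.84 lower, and *Gbx2* 3.69 higher, from 1.20 lower, while in XN1 *En1* went from 0.30 to 5.66 and *En2* from 0.41 to 4.19 higher.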
